A study of Mus musculus with 7 samples.

Results

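Rab genes encode the small GTPases that direct vesicles between the membranes of a cell. Every row of the mouse RNA-seq count table whose symbol was Rab followed by a number and an optional letter was taken as a member, which gave 59 of 34305 rows. Of these, 53 passed the filter on low counts and were tested together with all other genes that passed it, 14808 in total. The table held messenger RNA counts from mouse HSPCs (haematopoietic stem and progenitor cells) kept in culture, the immature blood-forming cells of the bone marrow. In MN1pQdel, 3 libraries came from HSPCs that overexpressed MN1-∆pQ, a form of the transcriptional co-regulator MN1 without its polyglutamine (pQ) stretch. In MN1, 3 libraries came from HSPCs that overexpressed MN1 itself. In noTD, 1 library came from cells that were not transduced. Cells of the transduced groups had received a plasmid and been sorted, and RNA was taken after 7 to 9 days in medium with serum, stem cell factor, IL-3 and IL-6, the medium named for all libraries. The sources used here do not give the vector, its promoter, the species of the construct or the day of each library. For noTD the source label has the wording of the transduced groups, and its group was taken from its title. The series text calls the libraries of a transduced group independent and names no animals, so a p-value here covers the spread among these libraries, which may be technical.

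A Rab protein switches between a form bound to GDP and a form bound to GTP. Exchange factors (GEFs) load GTP and place the Rab on its membrane, where the GTP form recruits effectors such as tethers and motor adaptors, and GTPase-activating proteins (GAPs) end the cycle. A lipid anchor added by the Rab escort protein and a prenyltransferase holds the Rab in the membrane, and GDP dissociation inhibitor (GDI) returns it to the cytosol. In granulocytes and mast cells, Rabs of secretory granules, among them Rab27a and Rab27b, are known for docking granules at the plasma membrane before they release their contents.

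Library totals ran from 38210847 to 67728808 estimated counts. Levels below are in CPM, the share of a library's counts on a common scale, after TMM scaling over the 7 libraries. Mn1 itself was read at 686, 403 and 730 CPM in MN1pQdel, at 314, 287 and 286 CPM in MN1 and at 34.0 CPM in noTD. Its log2 fold change of MN1pQdel over MN1 was 1.05 (SE 0.23, adjusted p = 0.0282, edgeR quasi-likelihood test), so the amount of Mn1 RNA and the missing stretch cannot be told apart in this design. Among HSPC markers, Kit was at 528, 248 and 878 CPM in MN1pQdel and at 311, 236 and 428 CPM in MN1, while Cd34 and Flt3 were lower in MN1pQdel and the other 6 of the 8 markers did not pass the threshold. Markers of mature cells were also present. All 12 neutrophil markers were higher in MN1pQdel, with summed levels of 26760 to 36870 CPM in MN1pQdel, 4336 to 8002 CPM in MN1 and 39240 CPM in noTD. In bulk RNA, fewer cells of a type and less RNA per cell cannot be told apart.

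Part of the Rab genes were higher with MN1-∆pQ than with MN1. Of the 53 tested, 16 were higher in MN1pQdel at an adjusted p under 0.05, which is 30.2%, where 11.1% of all tested genes were higher. None was lower, where 6.08% of all tested genes were lower, and at an unadjusted p under 0.05 there were 24 higher (45.3%, against 21% of all tested genes) and 2 lower Rab genes (3.77%, against 16.8%), the lower being Rab4a and Rab17. DESeq2 called Rab4a lower. The median log2 fold change of the 53 was 0.37, against 0.01 over all tested genes, and 42 of the 53 (79.2%) had a positive value, against 50.7% of all tested genes. For 26 of the 53 (49.1%), every MN1pQdel library was above every MN1 library, as it was for 21.7% of all tested genes. The opposite held for 4 (7.55%), and for 21.9% of all tested genes. Summed over the Rab genes, levels were 5247, 4176 and 5193 CPM in MN1pQdel, 3536, 3255 and 3374 CPM in MN1 and 5267 CPM in noTD. Replicate 2 of MN1pQdel thus stood between the other MN1pQdel libraries and MN1, and it was the lowest MN1pQdel library for 31 of the 53 genes. That count was not made over all tested genes, so it may not be particular to the Rab genes.

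**Figure D1:**
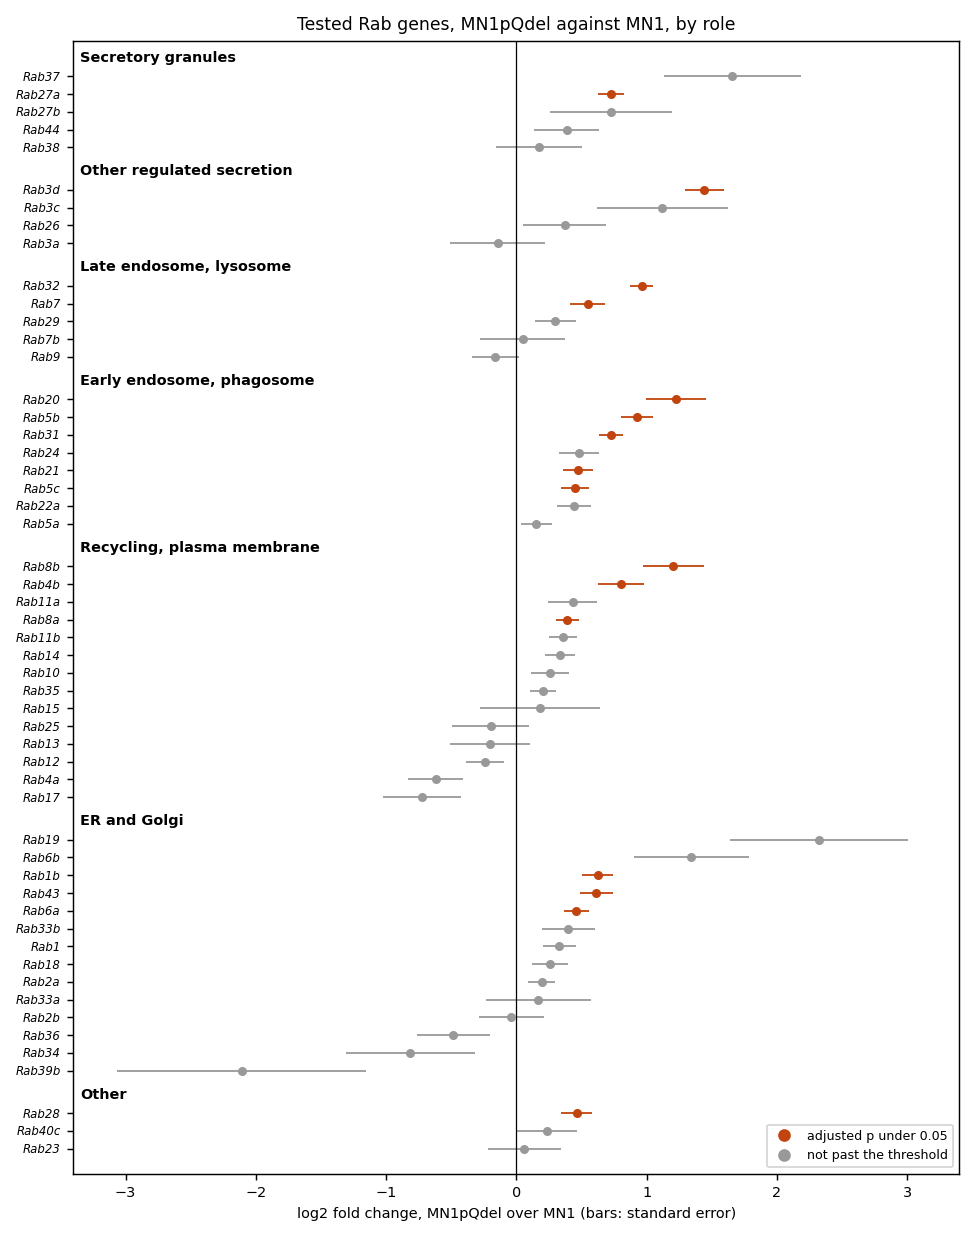
Log2 fold change of MN1pQdel over MN1 for each of the 53 tested Rab genes, with its standard error, grouped by the membrane or route each Rab serves. The 16 genes past the threshold all lie to the right of 0, and the median of the 53 is 0.37.

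The number of calls changed when libraries were left out, which also leaves fewer libraries to estimate the spread. Without replicate 2 of MN1pQdel, 26 Rab genes were higher (21.3% of all tested genes) and 1, Rab39b, was lower (20.6%). Without replicate 1 of MN1pQdel 5 were higher (2.73% of all tested genes), as without replicate 3 of MN1pQdel (4.51%) and without replicate 1 (2.87%), 2 (2.67%) or 3 (2.49%) of MN1. Those 5 were Rab3d, Rab5b, Rab27a, Rab31 and Rab32, which held in 6 of 6 such fits, whereas the other 11 held only without replicate 2 of MN1pQdel. None was lower in these 5 fits, where the shares of all tested genes were 0.631%, 1.69%, 1.27%, 1.8% and 0.855%. Without both replicate 2 libraries, 25 were higher and Rab39b was lower (17.4% of all tested genes each way).

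Other ways of fitting gave 9 to 24 higher Rab genes. With the replicate number as a block, 24 Rab genes were higher and Rab4a was lower (17% and 13.7% of all tested genes). With DESeq2, 22 were higher and Rab4a was lower (16.8% and 13.1%). DESeq2's size factors within edgeR gave 16 higher and 0 lower (10.6% and 6.3%), and the fit without a filter on low counts gave 14 and 0 (6.45% and 3.75%). With libraries scaled by their totals alone, 9 were higher and Rab4a was lower (7.7% and 12.5%), and that scaling moved the median log2 fold change of all genes by -0.20.

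Most of the calls were of abundant members. Of the 33 Rab genes that averaged 20 CPM or more, 15 were higher in MN1pQdel (45.5%, against 15.5% of all tested genes at that level), 0 were lower (4.82%) and 31 had a positive fold change. For 21 of them (63.6%, against 26.9%) every MN1pQdel library was above every MN1 library. Of the 20 under 20 CPM, 1 was higher, Rab20, which is 5% against 6.57% of all tested genes at that level, a share near the background, and 0 were lower (7.4%). Their median log2 fold change was 0.05, and that of the 33 abundant members was 0.46. Over all tested genes, the share of positive values was not computed by level. The medians there were 0.002 under 20 CPM and 0.013 at 20 CPM or more. That limit was chosen after the values were seen. Per kilobase of transcript, Rab1b was the highest Rab gene in each group, with 317 CPM per kb in MN1pQdel, 208 in MN1 and 349 in noTD. Rab7, at 231, 159 and 263 CPM per kb in MN1pQdel, MN1 and noTD, came next, followed by Rab5c at 178, 131 and 200 CPM per kb. These ranks rest on the median length of annotated coding transcripts, 757 bases for Rab1b. By mean CPM in MN1pQdel, Rab1b (240) was below Rab7 (407), Rab44 (375), Rab5c (346) and Rab1 (279). The 59 members lie on 18 chromosomes and the 16 higher ones on 9.

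Promoter windows, from 250 bases before to 50 bases after the start of the gene, were available from RefSeq (GRCm38.p6) for 48 of the 59 members and for all 16 that were higher. They are shown for the higher Rab genes whose window holds 1 of 4 short motifs known from myeloid transcription factors and E-box proteins. The 4 windows run 5′ to 3′ on the strand of the gene, with the motif in capitals.
Rab20, chr8:11478591-11478890, minus strand: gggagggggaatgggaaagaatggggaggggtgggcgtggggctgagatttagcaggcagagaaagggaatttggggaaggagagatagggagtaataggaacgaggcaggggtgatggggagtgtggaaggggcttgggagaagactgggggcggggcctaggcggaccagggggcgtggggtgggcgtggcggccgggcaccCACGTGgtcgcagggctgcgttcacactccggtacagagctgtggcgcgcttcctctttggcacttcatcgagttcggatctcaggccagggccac
Rab21, chr10:115315542-115315841, minus strand: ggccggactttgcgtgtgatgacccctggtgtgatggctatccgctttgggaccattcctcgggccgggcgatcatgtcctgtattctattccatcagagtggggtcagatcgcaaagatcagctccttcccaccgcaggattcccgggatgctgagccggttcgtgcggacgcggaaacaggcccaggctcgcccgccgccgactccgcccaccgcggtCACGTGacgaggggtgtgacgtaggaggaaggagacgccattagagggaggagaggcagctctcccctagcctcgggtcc
Rab32, chr10:10558158-10558457, minus strand: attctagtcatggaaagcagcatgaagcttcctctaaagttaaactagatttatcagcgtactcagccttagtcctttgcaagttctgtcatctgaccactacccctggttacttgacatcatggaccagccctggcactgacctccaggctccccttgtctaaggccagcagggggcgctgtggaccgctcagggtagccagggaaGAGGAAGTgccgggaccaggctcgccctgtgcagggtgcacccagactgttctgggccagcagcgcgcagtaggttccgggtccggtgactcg
Rab1b, chr19:5106947-5107246, minus strand: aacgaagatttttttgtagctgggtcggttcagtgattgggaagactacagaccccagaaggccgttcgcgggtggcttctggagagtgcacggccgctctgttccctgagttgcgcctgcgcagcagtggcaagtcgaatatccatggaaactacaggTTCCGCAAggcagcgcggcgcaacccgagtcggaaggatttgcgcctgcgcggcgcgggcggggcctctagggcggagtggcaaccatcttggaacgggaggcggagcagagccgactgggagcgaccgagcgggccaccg
The E-box CACGTG stood in the windows of Rab20 and Rab21, which is 2 of 16 higher members, 5 of 48 members (10.4%) and 9.74% of 10791 tested genes with a window. The PU.1-type motif GAGGAAGT stood in that of Rab32, in 2 of 48 members (4.17%) and in 3.31% of the tested genes. The motif TTGCNNAA, as bound by C/EBP factors, was found in Rab1b, where it reads on the other strand, in 3 of 48 members (6.25%) and in 8.72% of the tested genes. The GATA motif AGATAA was found in 0 of the 16, in 1 of 48 members (2.08%) and in 7.29% of the tested genes. Both strands were searched, and a match is a description of letters only. The windows of the 16 had a median GC content of 63.0%, against 60.3% for the tested genes.

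Of the 5 Rabs of secretory granules, Rab27a passed the threshold and the other 4 did not, where 11.1% of all tested genes were higher. Rab27a (chromosome 9, 73044854 to 73097629, plus strand, GRCm38), which docks granules at the plasma membrane, was at 171, 197 and 195 CPM in MN1pQdel, at 112, 116 and 115 CPM in MN1 and at 187 CPM in noTD. The groups did not overlap, and noTD fell among the MN1pQdel libraries. Rab27a had a log2 fold change of 0.73 (SE 0.10, adjusted p = 0.00813). Rab37 (chromosome 11, 115091431 to 115162236, plus strand), a granule Rab known from mast cells, was at 141, 39.0 and 140 CPM in MN1pQdel, at 47.3, 20.5 and 34.6 CPM in MN1 and at 141 CPM in noTD. Replicate 2 was the lowest of each transduced group, and that of MN1pQdel lay within the range of MN1. The log2 fold change of Rab37 was 1.66 (SE 0.53, adjusted p = 0.0712), and with the replicate block it was 1.52 (SE 0.23, adjusted p = 0.0166). DESeq2 also called Rab37 higher (adjusted p = 0.00747), as did edgeR without replicate 2 of MN1pQdel (adjusted p = 0.00424). The span of Rab37 overlaps that of Cd300lf on the other strand, and the strand setting is not given. Reads may be shared if their transcripts have sequence in common, which was not examined.

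Rab27b (chromosome 18, 69979131 to 70141605, minus strand), the close relative of Rab27a in platelet and mast cell granules, was at 182, 83.6 and 221 CPM in MN1pQdel, at 132, 47.6 and 119 CPM in MN1 and at 176 CPM in noTD. Its groups overlapped through replicate 2 of MN1pQdel. The log2 fold change was 0.72 (SE 0.47, adjusted p = 0.292), and 0.74 (SE 0.11, adjusted p = 0.0160) with the block. Leaving out 1 library gave Rab27b 0.38 (without replicate 2 of MN1) to 1.01 (without replicate 2 of MN1pQdel). Rab44 (chromosome 17, 29114145 to 29148980, plus strand), a large Rab with EF-hand motifs, was at 483, 282 and 359 CPM in MN1pQdel, at 363, 277 and 227 CPM in MN1 and at 452 CPM in noTD. These groups overlapped, with a log2 fold change of 0.39 (SE 0.25, adjusted p = 0.291). It was 0.15 to 0.58 with 1 library left out, lowest without replicate 1 of MN1pQdel, and 0.18 with library totals. Rab38 (chromosome 7, 88430273 to 88491572, plus strand), which serves melanosomes and other lysosome-related organelles, was at 99.0, 48.5 and 89.2 CPM in MN1pQdel, at 91.1, 46.8 and 73.7 CPM in MN1 and at 109 CPM in noTD. The log2 fold change of Rab38 was 0.17 (SE 0.33, adjusted p = 0.722), and in both transduced groups replicate 2 was the lowest library. Its sign turned with library totals (-0.045), without replicate 1 of MN1pQdel (-0.040) and without replicate 2 of MN1 (-0.057).

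Some markers of granulated cells were also higher in MN1pQdel. The mast cell list, of which 6 of 12 markers were higher in MN1pQdel, summed to 14620, 2844 and 17470 CPM in MN1pQdel, to 3650, 1496 and 3248 CPM in MN1 and to 15350 CPM in noTD. Of the 9 eosinophil markers in the table, 7 were higher, and the list summed to 3379, 234.7 and 3657 CPM in MN1pQdel, to 13.32 to 21.44 CPM in MN1 and to 3853 CPM in noTD. For basophils, 4 of 8 markers were higher, with sums of 3070, 1206 and 3359 CPM in MN1pQdel, 376.2 to 981.8 CPM in MN1 and 3042 CPM in noTD. In each of these 3 lists, as for Rab27b, Rab37, Rab38 and Rab44, replicate 2 of MN1pQdel was the lowest of its group. Rab27a was lowest in replicate 1 of MN1pQdel, and the neutrophil sum in replicate 3. None of the markers of these 3 lists was at 0 in every library. Other lists shared the low replicate 2. HSPC markers summed to 1734, 924.7 and 2289 CPM in MN1pQdel, 1499, 1284 and 1766 CPM in MN1 and 2176 CPM in noTD. Megakaryocyte and platelet markers summed to 696.7, 281.7 and 737.2 CPM in MN1pQdel, 437.8, 137.5 and 334.2 CPM in MN1 and 433.5 CPM in noTD. Of 12 monocyte and macrophage markers 6 were higher, with sums of 1052 to 1246 CPM in MN1pQdel, 551.3 to 605.5 CPM in MN1 and 1473 CPM in noTD. Primary granule markers differed in the other direction between libraries, with 8024 CPM in replicate 2 of MN1pQdel, 2284 and 1180 CPM in the other MN1pQdel libraries, 1966 to 4387 CPM in MN1 and 1749 CPM in noTD, and 1 of 6 was higher. Erythroid markers summed to 318 to 349.8 CPM in MN1pQdel, 357.2 to 405.5 CPM in MN1 and 187.2 CPM in noTD, and Cd209a of the dendritic list was at 0 in every library. The part of the cell makeup in the Rab levels was not tested.

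**Figure D2:**
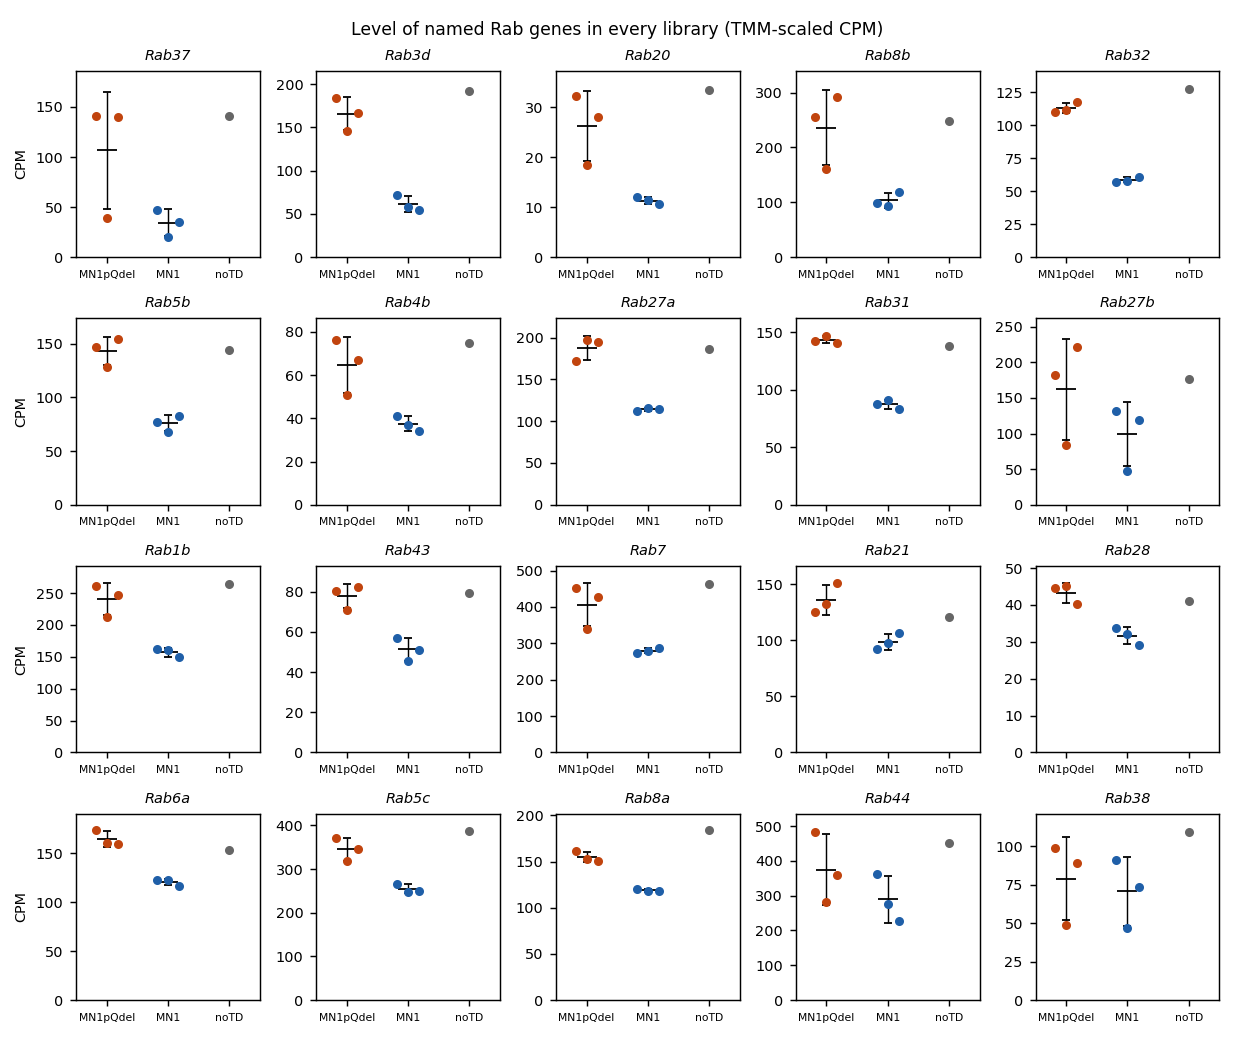
Levels in CPM of the 5 granule Rabs and the 16 Rab genes past the threshold, 1 panel a gene (Rab27a is in both sets). Points are libraries, in the order of their replicate numbers within MN1pQdel, MN1 and noTD, and bars are the mean ± SD of 3 libraries. Rab27a is tight within each group, whereas Rab27b, Rab37 and Rab38 are lowest in replicate 2 of both transduced groups.

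Among Rabs of regulated secretion, Rab3d (chromosome 9, 21907491 to 21918192, minus strand), found on secretory granules of exocrine and mast cells, had the largest fold change of the 16 higher members. Rab3d was at 184, 146 and 166 CPM in MN1pQdel, at 71.9, 57.9 and 54.4 CPM in MN1 and at 193 CPM in noTD. The lowest MN1pQdel library was above the highest MN1 library. The log2 fold change was 1.44 (SE 0.15, adjusted p = 0.00526). The other tested genes of this group, Rab3a, Rab3c and Rab26, stayed under 5 CPM in every library and did not pass.

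Early endosome Rabs sort newly internalised cargo and phagosomes. Of 8 tested, 5 were higher, where 11.1% of all tested genes were, and all 8 fold changes were positive, with a median log2 of 0.48. Rab5b and Rab31 were the 2 of these 5 that held in every fit with 1 library left out. Rab20 (chromosome 8, 11453518 to 11478710, minus strand), which acts on phagosomes and macropinosomes, was at 32.3, 18.5 and 28.0 CPM in MN1pQdel, at 12.0, 11.4 and 10.6 CPM in MN1 and at 33.4 CPM in noTD. Its log2 fold change of 1.23 (SE 0.23, adjusted p = 0.0192) was the largest of the group. Rab5b (chromosome 10, 128677175 to 128696264, minus strand), an isoform of the early endosome organiser Rab5, was at 147, 129 and 154 CPM in MN1pQdel, at 77.1, 67.9 and 82.8 CPM in MN1 and at 144 CPM in noTD. Rab5b was higher by a log2 of 0.93 (SE 0.12, adjusted p = 0.00776). Rab31 (chromosome 17, 65651729 to 65772752, minus strand), which works between the Golgi and endosomes, was at 143, 147 and 141 CPM in MN1pQdel, at 87.8, 91.2 and 83.0 CPM in MN1 and at 138 CPM in noTD. Both transduced groups were tight, and the log2 fold change was 0.73 (SE 0.09, adjusted p = 0.00645).

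Rab21 and Rab5c changed less. Rab21 (chromosome 10, 115287084 to 115315594, minus strand), known for integrin uptake, was at 125, 132 and 151 CPM in MN1pQdel, at 92.3, 98.0 and 107 CPM in MN1 and at 121 CPM in noTD, with a log2 fold change of 0.47 (SE 0.11, adjusted p = 0.0352). Rab5c (chromosome 11, 100715009 to 100738215, minus strand), the most abundant Rab5 isoform per kilobase here, was at 372, 319 and 346 CPM in MN1pQdel, at 267, 248 and 251 CPM in MN1 and at 388 CPM in noTD. Rab5c had a log2 fold change of 0.45 (SE 0.11, adjusted p = 0.0353). Rab5a, Rab22a and Rab24 did not pass, with log2 fold changes of 0.15, 0.44 and 0.48, though Rab22a (adjusted p = 0.0346) and Rab24 (adjusted p = 0.0368) did with the block.

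Of the late endosome and lysosome Rabs, 2 of 5 tested were higher, where 11.1% of all tested genes were. Rab32 (chromosome 10, 10545002 to 10558265, minus strand), a relative of Rab38 that serves lysosome-related organelles and phagosomes, was at 110, 111 and 118 CPM in MN1pQdel, at 57.1, 57.9 and 60.6 CPM in MN1 and at 127 CPM in noTD. With a log2 fold change of 0.96 (SE 0.09, adjusted p = 0.00507), Rab32 had the smallest adjusted p of the Rab genes. Rab7 (chromosome 6, 87999106 to 88045270, minus strand), which drives fusion of late endosomes with lysosomes, was at 451, 340 and 428 CPM in MN1pQdel, at 272, 280 and 288 CPM in MN1 and at 462 CPM in noTD. The groups of Rab7 did not overlap, and the log2 fold change was 0.55 (SE 0.13, adjusted p = 0.0379). Rab7b, Rab9 and Rab29 did not pass, with log2 fold changes of 0.05, -0.16 and 0.30.

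Rabs of recycling endosomes and transport to the plasma membrane included 3 higher members of 14 tested, where 11.1% of all tested genes were higher. Rab8b (chromosome 9, 66843664 to 66919687, minus strand), which with Rab8a carries cargo to the cell surface, was at 256, 160 and 292 CPM in MN1pQdel, at 98.0, 92.5 and 119 CPM in MN1 and at 247 CPM in noTD. Rab8b was higher by a log2 of 1.21 (SE 0.23, adjusted p = 0.0212). Rab8a (chromosome 8, 72161200 to 72183904, plus strand) was at 161, 152 and 151 CPM in MN1pQdel, at 121, 118 and 118 CPM in MN1 and at 184 CPM in noTD, with a log2 fold change of 0.39 (SE 0.09, adjusted p = 0.0311). Neither gene overlapped between the transduced groups. Rab4b (chromosome 7, 27168424 to 27178896, minus strand), a Rab of fast recycling, was at 76.3, 50.7 and 67.2 CPM in MN1pQdel, at 41.1, 36.9 and 34.3 CPM in MN1 and at 75.0 CPM in noTD. The log2 fold change of Rab4b was 0.80 (SE 0.18, adjusted p = 0.0282), and the gene shares its locus with the annotated gene Gm21983 on the same strand. Its relative Rab4a had the opposite sign, at 8.0, 6.59 and 10.2 CPM in MN1pQdel, 13.0, 12.1 and 13.2 CPM in MN1 and 10.7 CPM in noTD. Rab4a had a log2 fold change of -0.62 (SE 0.21, adjusted p = 0.0821), and of -0.64 (adjusted p = 0.0488) with the block.

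Close relatives were compared as ratios of their counts within each library, which no scaling of libraries can alter. The ratio of Rab4b to Rab4a was 9.54, 7.69 and 6.61 in MN1pQdel, 3.16, 3.04 and 2.60 in MN1 and 6.98 in noTD. Rab5b over Rab5a was 2.02, 2.17 and 2.51 in MN1pQdel, 1.28, 1.15 and 1.47 in MN1 and 2.34 in noTD. For both pairs every MN1pQdel library was above every MN1 library, and the same held for Rab8b over Rab8a and Rab1b over Rab1. The log2 difference of MN1pQdel minus MN1 was 1.43 (SE 0.18) for Rab4b over Rab4a, 0.78 (SE 0.14) for Rab5b over Rab5a, 0.78 (SE 0.28) for Rab8b over Rab8a and 0.30 (SE 0.06) for Rab1b over Rab1. Each of these had an exact two-sided permutation p of 0.10, the smallest that 3 libraries against 3 can give, and 0.125 after Benjamini-Hochberg adjustment over the 5 pairs. Rab27b over Rab27a did not separate the groups, at 1.06, 0.424 and 1.13 in MN1pQdel, 1.17, 0.411 and 1.03 in MN1 and 0.945 in noTD (log2 difference 0.01, SE 0.66, exact p = 1.0). In both transduced groups it was lowest in replicate 2. The pairs were chosen after the values were seen.

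Rabs of the endoplasmic reticulum and Golgi counted 3 higher members of 14 tested, where 11.1% of all tested genes were higher. Rab1b (chromosome 19, 5099205 to 5107072, minus strand), which acts in transport from the endoplasmic reticulum to the Golgi, was at 262, 213 and 246 CPM in MN1pQdel, at 163, 160 and 149 CPM in MN1 and at 264 CPM in noTD. It was higher by a log2 of 0.62 (SE 0.12, adjusted p = 0.0191). Rab43 (chromosome 6, 87788853 to 87812164, minus strand), a Golgi Rab, was at 80.3, 70.8 and 82.4 CPM in MN1pQdel, at 57.1, 45.5 and 51.1 CPM in MN1 and at 79.3 CPM in noTD. Rab43 was higher by a log2 of 0.61 (SE 0.13, adjusted p = 0.0242). Rab6a (chromosome 7, 100607410 to 100641268, plus strand), which returns cargo through the Golgi, was at 173, 160 and 160 CPM in MN1pQdel, at 122, 122 and 117 CPM in MN1 and at 153 CPM in noTD. Rab6a had a log2 fold change of 0.46 (SE 0.09, adjusted p = 0.0233). The span of Rab6a overlaps that of Mrpl48 on the other strand, and that of Rab43 overlaps Gm45140 on its own strand. Reads may be shared there too, but transcript sequence in common was not examined. For these 3 genes no MN1pQdel library was as low as any MN1 library.

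This group also held the most extreme fold changes of the 53. Rab19 was at 37.3, 8.47 and 54.1 CPM in MN1pQdel, at 8.59, 3.47 and 8.13 CPM in MN1 and at 41.0 CPM in noTD. Its log2 fold change was 2.32 (SE 0.68, adjusted p = 0.0592), and 2.08 (SE 0.31, adjusted p = 0.0166) with the block. As with Rab37, replicate 2 of MN1pQdel lay within the range of MN1. Rab39b, under 2 CPM in every library, had the lowest fold change, with a log2 of -2.11 (SE 0.96, adjusted p = 0.155). Among tested members placed in none of the groups above, 1 of 3 was higher, where 11.1% of all tested genes were. This was Rab28 (chromosome 5, 41624976 to 41708157, minus strand), known from cilia and photoreceptors. Rab28 was at 44.5, 45.2 and 40.2 CPM in MN1pQdel, at 33.8, 32.1 and 29.1 CPM in MN1 and at 41.0 CPM in noTD. It was higher in MN1pQdel by a log2 of 0.46 (SE 0.12, adjusted p = 0.0434).

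The 6 members that did not pass the filter on low counts were Rab3b, Rab9b, Rab30, Rab39, Rab40b and Rab42, and no fold change is given for them. Rab40b held 51, 2 and 22 counts in MN1pQdel, 7, 7 and 8 counts in MN1 and 35 counts in noTD. Rab42 held 1, 5 and 0 counts in MN1pQdel, 6, 9 and 17 counts in MN1 and 0 counts in noTD. The remaining 4 were under 1 CPM in every library.

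Set against the untransduced library, Rab genes were lower in MN1 more often than in MN1pQdel, but both comparisons share the same single noTD library, so no test was made. In MN1, 39 of 53 Rab genes were below noTD in every library (73.6%, against 39.2% of all tested genes). In MN1pQdel, 17 of 53 were (32.1%, against 18.8%). The median log2 difference from noTD over the 53 was 0.00, -0.24 and -0.01 in MN1pQdel and -0.38, -0.50 and -0.39 in MN1. At a limit of 2-fold, 0 Rab genes were below noTD in every MN1pQdel library (0.696% of all tested genes) and 7 in every MN1 library (13.2%, against 10.4%), a share near the background. Above noTD by that limit were 1 in MN1pQdel, Rab26 at under 1 CPM (1.89%, against 0.358%), and 3 in MN1 (5.66%, against 7.32%). Leaving out replicate 2 of MN1pQdel put 1 Rab gene, Rab7b, below noTD by that limit.

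**Figure D3:**
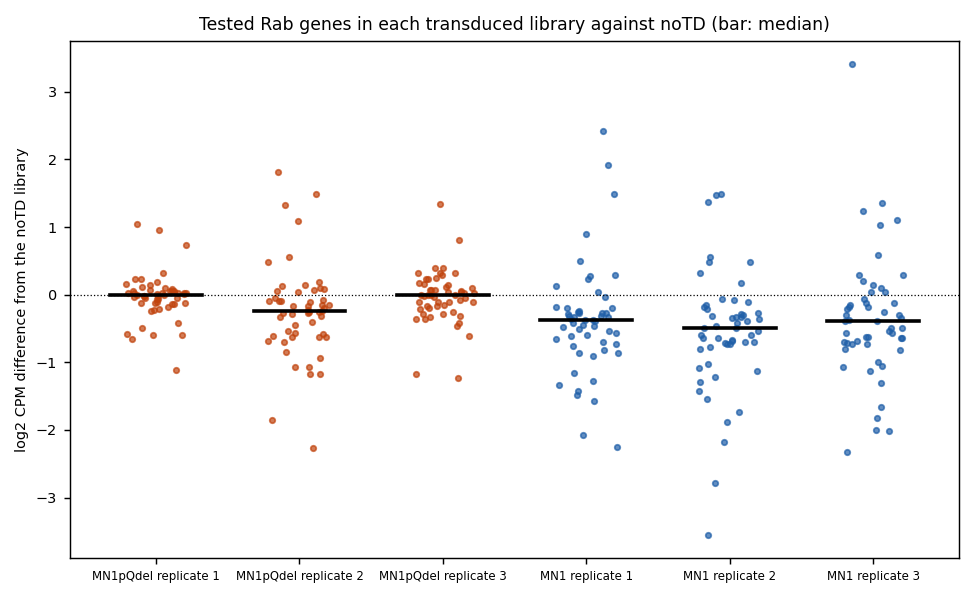
Log2 CPM difference of each tested Rab gene (points) from the single noTD library, for each MN1pQdel and each MN1 library, with the median as a bar. Medians are 0.00, -0.24 and -0.01 in MN1pQdel and -0.38, -0.50 and -0.39 in MN1.

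Of the 16 higher members, all 16 were higher in noTD than in any MN1 library. These 16 were picked for lower levels in MN1 than in MN1pQdel, which favours a noTD value above MN1. The same share over all higher genes was not computed. For 6 of the 16 members noTD lay within the range of the MN1pQdel libraries, for 7 above it and for 3 below it. The largest mean differences below noTD in MN1 were those of Rab19, with a log2 of -2.71 (SD 0.73), Rab37, with -2.12 (SD 0.61), and Rab3d, with -1.66 (SD 0.21). Above noTD in MN1 stood Rab9 at 0.45, Rab4a at 0.25 and Rab12 at 0.19. In MN1pQdel the largest mean differences below noTD were those of Rab7b, with -0.81 (SD 0.63), Rab19, with -0.67 (SD 1.41), and Rab37, with -0.62 (SD 1.07). The values of Rab19 and Rab37 rested on replicate 2 of MN1pQdel. Without it, their mean differences were 0.13 for Rab19 and -0.0025 for Rab37. Above noTD in MN1pQdel stood Rab9 at 0.26, Rab21 at 0.17 and Rab6a at 0.11.

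The proteins that run the Rab cycle were described next to the Rabs. None of the 8 genes for GDI, escort and prenylation proteins passed the threshold, with a median log2 fold change of 0.31, while at an unadjusted p under 0.05 there were 4 higher and 1 lower. With the block, 3 of them were higher and 1 was lower, and DESeq2 called 4 higher. Of 34 GEF genes 7 were higher (20.6%) and 1 was lower, and of 35 GAP genes 8 were higher (22.9%) and 2 were lower. Of 32 tested effector genes 12 were higher (37.5%) and 0 lower, with a median of 0.48. Of 20 genes for granule SNAREs and their regulators, which fuse vesicles with target membranes, 8 were higher (40.0%) and 1 was lower, with a median of 0.45. Over all tested genes 11.1% were higher and 6.08% lower, with a median of 0.01, so the share of lower GAP genes is near the background. Without replicate 2 of MN1pQdel, 21 effector genes and 11 SNARE genes were higher, where 21.3% of all tested genes were, and without any other single library 0 to 2 of each were.

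**Figure D4:**
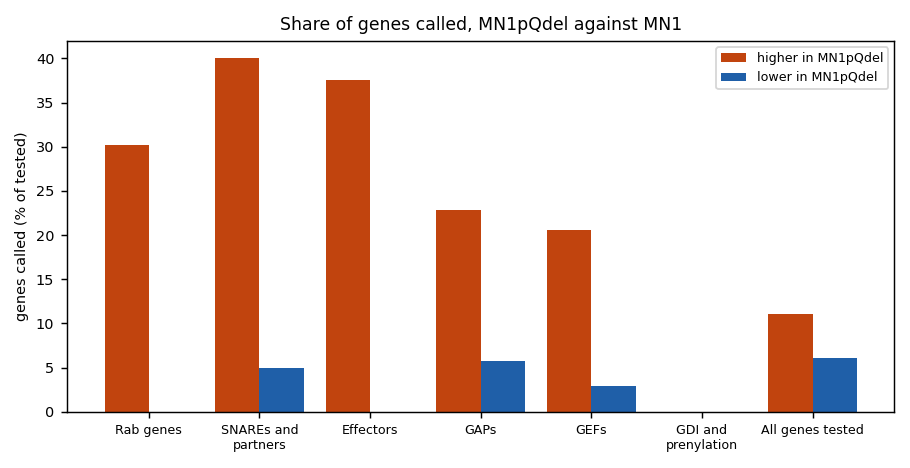
Percent of tested genes higher (red) and lower (blue) in MN1pQdel at an adjusted p under 0.05, for the Rab genes, 5 lists of partners and all tested genes. The share of higher genes is 30.2% for Rab genes, 40.0% for SNAREs, 37.5% for effectors, 22.9% for GAPs, 20.6% for GEFs, 0 for GDI and prenylation and 11.1% for all tested genes.

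Effectors of Rab27 led their list. Mlph (melanophilin), which links Rab27a to a myosin motor, was at 15.7, 0.878 and 24.9 CPM in MN1pQdel, at 0.879, 0.763 and 1.14 CPM in MN1 and at 20.5 CPM in noTD. Its log2 fold change was 3.91 (SE 1.06, adjusted p = 0.0485), although replicate 2 of MN1pQdel was within the range of MN1. Sytl2, a synaptotagmin-like Rab27 effector, was at 48.8, 8.08 and 56.1 CPM in MN1pQdel, at 5.93, 2.68 and 5.56 CPM in MN1 and at 72.8 CPM in noTD (log2 fold change 3.01, SE 0.72, adjusted p = 0.0356). Sytl3, of the same family, was at 16.5, 2.63 and 23.1 CPM in MN1pQdel, at 1.88, 0.694 and 1.87 CPM in MN1 and at 21.9 CPM in noTD (log2 fold change 3.26, SE 0.82, adjusted p = 0.0400). All 3 were lowest in replicate 2 within MN1pQdel and within MN1, as were the mast cell and basophil marker sums.

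The GAP and GEF genes with the largest changes had smaller standard errors than Mlph, Sytl2 and Sytl3. Tbc1d8, of the TBC-domain family of Rab GAPs, was at 128, 105 and 125 CPM in MN1pQdel, at 32.6, 28.5 and 27.7 CPM in MN1 and at 114 CPM in noTD (log2 fold change 2.02, SE 0.13, adjusted p = 0.00357). Tbc1d2 and Tbc1d20, of the same family, were higher by a log2 of 1.82 (SE 0.30) and 1.22 (SE 0.17). Among GEFs, Dennd2a and Dennd1c, of the DENN-domain family, were higher by 2.56 (SE 0.46) and 1.96 (SE 0.39), and Rin2, a Rab5 exchange factor, by 1.46 (SE 0.27). Within MN1pQdel, all of these GAP and GEF genes but Dennd2a were lowest in replicate 2. Tbc1d2 was at 71.4, 37.4 and 77.8 CPM there and Dennd1c at 63.9, 21.8 and 56.3 CPM. Of the SNAREs, Stx3, a plasma membrane syntaxin, was at 93.4, 26.9 and 112 CPM in MN1pQdel, at 18.3, 17.4 and 21.7 CPM in MN1 and at 73.2 CPM in noTD (log2 fold change 2.03, SE 0.49, adjusted p = 0.0359). Stx11, a syntaxin needed for the release of cytotoxic granules, and Snap23, which pairs with plasma membrane syntaxins, were higher by 1.49 (SE 0.17) and 1.21 (SE 0.32).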

How the data were processed

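Per the labels' protocols, poly(A) RNA was sequenced as paired reads of 150 bases. The values are estimated counts by gene symbol that the authors deposited without normalisation, of which 32.5% were not whole (tolerance 1e-06). The submitters' processing notes name kallisto, DESeq2 and GRCm38, and give no versions. In 26 rows, with 0.172% of all counts, the symbol had become a date. These rows stayed in the tests.

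Counts were rounded, filtered with filterByExpr and scaled by TMM. The quasi-likelihood test of edgeR 4.0.16 in R 4.3.3 compared the 3 MN1pQdel with the 3 MN1 libraries, with group as the only term, Benjamini-Hochberg adjustment over 14808 genes and a threshold of 0.05. The script was tested on simulated counts. The noTD group has 1 library and stayed out of the fit. Differences from noTD are log2 CPM with a prior count of 2. Replicates were distinct libraries, with a chi-square per gene of 43.3 or more between any pair of a group. Within MN1pQdel it was 317 and 352 for the pairs with replicate 2, against 75.4 for replicates 1 and 3. Deviations from the mean of each group correlated across genes at 0.368, 0.259 and 0.320 between libraries of the same replicate number and at -0.282 to -0.0602 between different numbers. Deviations cancel out within a group, so positive values at the same number force lower ones between different numbers. The labels do not say what the numbers mark, so the pairing rests on these same data. It enters the replicate block only and not the main fit, and p-values with the block depend on that choice.

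The members and the gene lists were chosen with earlier results of these data known. Full values are given for members past the threshold, the 5 granule Rabs and the 3 most abundant members, for up to 3 genes past the threshold with at least 5 CPM per partner list, and for the 3 largest differences from noTD each way, among members with at least 100 counts. Rab4a, Rab17, Rab19 and Rab39b were named in the comparison of MN1pQdel with MN1 after their values were seen, as were the partner genes that were lower, not all of which are reported here. Coordinates come from GENCODE M21 (GRCm38) by symbol, and CPM per kb uses the median length of protein-coding transcripts. Pseudogenes of some Rab genes, such as Rab11b-ps2, are rows of their own and may share reads with them. Alternatives were other scalings, no filter, DESeq2 1.42.0, the replicate block and leaving out libraries.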

Additional observations from a re-analysis of the deposited data

How the results depend on the processing

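In the test across all genes, 2544 genes differed, against 4351 with DESeq2, 4545 with the replicate block and 5247 without both replicate 2 libraries. Leaving out 1 library gave 506 to 6394, the highest without replicate 2 of MN1pQdel. Of Rab genes, 16 were higher (11.1% of all tested genes). The same 16 were among those higher with DESeq2 (22 in all, against 16.8% of all tested genes), with its size factors (16, against 10.6%) and with the block (24, against 17%). Scaling by library totals alone gave 9 (7.7% of all tested genes), no filter gave 14 (6.45%) and leaving out both replicate 2 libraries gave 25 (17.4%). Leaving out 1 library gave 5 to 26, while the share of all tested genes ran from 2.49% to 21.3%. With library totals the share of higher among all changed genes was 38.2%, against 64.6%. Rab21, Rab28, Rab43, Rab5c, Rab6a, Rab7 and Rab8a were no longer called with library totals. The count of lower Rab genes was 0 (6.08% of all tested genes). It was 1 with library totals (12.5%), DESeq2 (13.1%) and the block (13.7%), and 1, Rab39b, without both replicate 2 libraries (17.4%). When 1 library was left out it was 0 to 1, while the share of all tested genes ran from 0.631% to 20.6%. With the block, Rab27b, Rab37, Rab19, Rab11b, Rab14, Rab22a, Rab24 and Rab6b were also higher. Rab38 had a log2 fold change of -0.045 with library totals and -0.057 to 0.41 when 1 library was left out. The mean log2 difference of Rab19 from noTD in MN1pQdel ran from -1.20 without replicate 3 of MN1pQdel to 0.13 without replicate 2. Without that library 1 Rab gene was at least 2-fold below noTD in every MN1pQdel library, against 0. Apart from library totals, which remove the TMM step, and the fits with fewer libraries, the cause was not tested. The groups have 3 libraries each and noTD has 1, and 6 Rab genes had too few counts to be tested.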

Other observations

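A few genes of the Rab cycle were lower in MN1pQdel. Usp6nl, a GAP of Rab5, was at 12.1, 17.1 and 11.3 CPM in MN1pQdel, at 25.3, 29.3 and 28.5 CPM in MN1 and at 10.6 CPM in noTD (log2 fold change -1.03, SE 0.19, adjusted p = 0.0195, edgeR quasi-likelihood test). Ankrd27, an exchange factor of Rab21 that also binds Rab32 and Rab38, was at 82.5, 94.0 and 92.0 CPM in MN1pQdel, at 127, 117 and 142 CPM in MN1 and at 67.4 CPM in noTD (log2 fold change -0.51, SE 0.11, adjusted p = 0.0275). Tbc1d22b, of the TBC-domain family, was lower by the same test, with a log2 fold change of -0.70 (SE 0.10, adjusted p = 0.0104). For these 3 genes every MN1pQdel library was below every MN1 library, and noTD was nearer to MN1pQdel.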
